A study of Mus musculus with 26 samples.

Results

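The genes described here are 10 components of the circadian clock, namely Clock, Arntl, Per1, Per2, Per3, Cry1, Cry2, Nr1d1, Nr1d2 and Dbp, taken by gene symbol from the 14580 genes listed in the deposited expression table. All 10 were listed at both ages and in both mouse lines. RNA-seq was performed on retinal ganglion cells (RGCs) of mice, enriched with antibody to the surface protein Thy1 and then sorted by green fluorescence. GFP-positive cells form the ipRGC libraries (intrinsically photosensitive RGCs, which contain the photopigment melanopsin, Opn4), and GFP-negative cells form the cRGC libraries (conventional RGCs).

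There were 6 groups. The Opn4-GFP line (genotype Opn4-GFP+/-, strain background BL6 in the labels, whereas the text of the study gives a mixed background for both lines) gave 3 ipRGC and 3 cRGC libraries at postnatal day 4 to 6, called P5 here, and 6 and 6 libraries from adults of postnatal day 27 to 33. The Opn4-Cre/GFP line (genotype Opn4-Cre+/-;Z/EG+/-, mixed background) gave 4 and 4 adult libraries. The first line is a bacterial artificial chromosome transgene that marks M1 to M3 ipRGCs, and the second uses Cre from the melanopsin locus to switch on GFP and marks M1 to M6. All groups carry a GFP reporter, each library pools several mice, and cells that failed to express GFP fall into the cRGC libraries. Libraries with the same replicate number were prepared side by side and are called a pool below, of which there were 13. The hour of collection and the light cycle were not given in the sources used here, and clock transcripts change with the hour, so values are compared first within pools.

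The mammalian clock is a transcriptional feedback loop. CLOCK and BMAL1 (the product of Arntl) bind E-box sequences and activate the Period and Cryptochrome genes, whose proteins return to the nucleus and repress CLOCK and BMAL1. The same activators drive Nr1d1 and Nr1d2, which encode the nuclear receptors REV-ERB alpha and beta that repress Arntl, and Dbp, which encodes an output transcription factor that binds D-box sequences. In the retina, clocks run in several cell types, and light can raise Per1 and Per2. The ipRGCs carry the light signal that sets the clock of the suprachiasmatic nucleus.

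To show what sequence surrounds the start sites of the 5 members that were called with age in both cell types, 300-base windows were taken from RefSeq (build GRCm38.p6; 250 bases before to 50 after the start). Of the 10 members, 9 matched the promoter table, with 13 windows in all, and Per2 did not. Per1 has a second window, which held no match and is not shown. Windows were searched on both strands for the E-box (CACGTG), an E-box variant (CACGTT, which reads AACGTG on the other strand), the D-box (TTATGTAA), the nuclear receptor motif (AGGTCA, which reads TGACCT on the other strand) and the cAMP response element (TGACGTCA). Capitals mark matches, and each window is written from 5′ to 3′ on the strand of its gene.
Nr1d1, chr11:98775328-98775627, minus strand: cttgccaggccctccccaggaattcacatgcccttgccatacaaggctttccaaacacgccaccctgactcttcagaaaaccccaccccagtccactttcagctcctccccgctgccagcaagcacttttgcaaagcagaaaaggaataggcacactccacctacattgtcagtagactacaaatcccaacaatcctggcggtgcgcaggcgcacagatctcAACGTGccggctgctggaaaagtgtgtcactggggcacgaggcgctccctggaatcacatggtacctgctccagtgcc
Per3, chr4:151044616-151044915, minus strand: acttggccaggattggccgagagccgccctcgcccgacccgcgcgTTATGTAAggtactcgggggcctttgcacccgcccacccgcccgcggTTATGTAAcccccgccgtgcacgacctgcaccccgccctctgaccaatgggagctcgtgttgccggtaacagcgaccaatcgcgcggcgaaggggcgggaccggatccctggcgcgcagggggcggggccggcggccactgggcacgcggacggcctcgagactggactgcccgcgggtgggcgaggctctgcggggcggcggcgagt
Per1, chr11:69098699-69098998, plus strand: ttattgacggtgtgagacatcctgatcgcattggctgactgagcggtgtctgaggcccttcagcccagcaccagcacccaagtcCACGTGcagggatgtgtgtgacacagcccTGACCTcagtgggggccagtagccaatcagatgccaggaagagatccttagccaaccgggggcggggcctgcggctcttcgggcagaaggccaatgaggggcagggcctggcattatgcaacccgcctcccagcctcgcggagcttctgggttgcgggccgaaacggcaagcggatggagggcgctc
Nr1d2, chr14:18239057-18239356, minus strand: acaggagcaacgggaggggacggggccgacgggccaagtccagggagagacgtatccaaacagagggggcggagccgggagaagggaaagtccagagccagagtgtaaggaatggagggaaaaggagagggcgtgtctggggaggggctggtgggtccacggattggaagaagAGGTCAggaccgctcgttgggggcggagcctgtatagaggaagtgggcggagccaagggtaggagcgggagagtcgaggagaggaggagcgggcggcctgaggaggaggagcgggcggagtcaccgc
Dbp, chr7:45704997-45705296, plus strand: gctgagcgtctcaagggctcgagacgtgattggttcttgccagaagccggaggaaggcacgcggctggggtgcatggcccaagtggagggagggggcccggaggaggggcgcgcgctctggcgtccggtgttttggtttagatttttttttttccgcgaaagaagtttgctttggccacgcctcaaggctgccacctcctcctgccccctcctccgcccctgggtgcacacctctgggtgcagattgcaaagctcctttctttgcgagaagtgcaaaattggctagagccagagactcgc
The Nr1d1 window holds the E-box variant 28 bases before the start, at bases 223 to 228, and 4.68% of the 32851 promoters of the table hold that variant. Per3 was the member with D-box matches, and it has 2 of them, at bases 46 to 53 and 93 to 100, whereas 0.938% of all promoters hold a D-box. Per1 holds an E-box at bases 85 to 90 and a receptor motif at bases 114 to 119, and Nr1d2 holds a receptor motif at bases 174 to 179. The E-box occurs in 7.15% of all promoters and the receptor motif in 16.3%. Of the members not shown, Cry1 holds an E-box and a variant, Cry2 holds a variant, and Clock and Arntl hold a receptor motif in 1 window each. No searched letters were found in the Dbp window, and a match here is a description of letters, not of a bound site.

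Reads assigned to listed genes ranged from 3927386 to 44871619 per library. Opn4 was far higher in the ipRGC libraries than in the cRGC libraries of every group, at 1986 to 3360 against 41.2 to 55.7 CPM (reads scaled to library size by the authors) at P5, at 2915 to 9823 against 69.1 to 487 CPM in adult Opn4-GFP mice, and at 820 to 3256 against 1.87 to 40.4 CPM in adult Opn4-Cre/GFP mice. The adult cRGC libraries carried transcripts of Müller glia. The summed CPM of 9 markers was 10767 to 20892 in adult Opn4-GFP cRGC libraries against 687 to 1365 in the ipRGC libraries, and 9490 to 39532 against 773 to 1310 in Opn4-Cre/GFP mice, and all 9 passed the test in both lines. At P5, 7 markers were listed, with sums of 345 to 368 in cRGC and 413 to 595 in ipRGC libraries. The summed CPM of 10 general RGC markers was 389 to 2408 in adult cRGC libraries against 3170 to 6428 in adult ipRGC libraries, so the cRGC label holds less well in adults than at P5. In pooled cells, a smaller number of cells with a transcript and less transcript per cell cannot be told apart.

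Nr1d1 was the most abundant of the 10 per kilobase of exon in all 6 groups. Its mean was 15.5 CPM per kb in P5 ipRGC, 33.6 in P5 cRGC, 148 and 277 in adult Opn4-GFP ipRGC and cRGC, and 91.8 and 340 in adult Opn4-Cre/GFP ipRGC and cRGC libraries. Its range overlapped that of the next gene in 3 of the groups, P5 ipRGC and both adult Opn4-GFP groups. At the low end, Dbp stood last at P5, with means of 0.238 CPM per kb in ipRGC and 1.22 in cRGC libraries, the latter overlapping Per2. In adults the lowest place went to Cry1 in 3 groups and to Arntl in Opn4-Cre/GFP ipRGCs, at 4.17 CPM per kb, and most neighbours in the adult order overlapped.

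**Figure D1:**
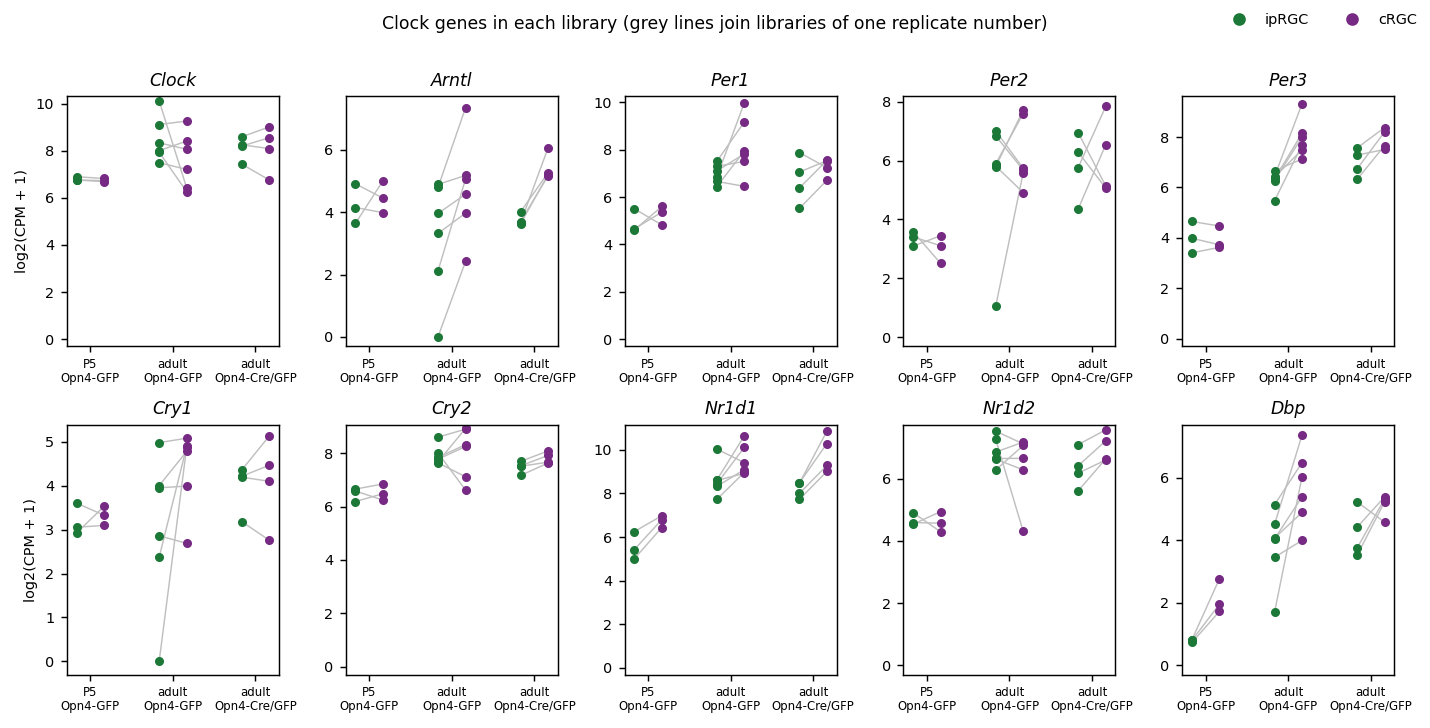
Each panel shows 1 clock gene, with log2(CPM + 1) of every library on the y axis and the 3 combinations of age and line on the x axis. Points are libraries, green for ipRGC and purple for cRGC, and grey lines join libraries of the same replicate number. Nr1d1 ranged from 31.1 CPM in a P5 ipRGC library to 1853 CPM in an adult Opn4-Cre/GFP cRGC library, and Dbp from 0.656 to 165 CPM.

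The first comparison asked, within each age and line, which clock genes differed between ipRGCs and cRGCs. Nr1d1 was lower in P5 ipRGCs and in adult Opn4-Cre/GFP ipRGCs, Per3 was lower in adult Opn4-GFP ipRGCs, and no clock gene was called higher in ipRGCs. Fits used limma on log2(CPM + 1) with the replicate number as a block, and a gene was called at a Benjamini-Hochberg adjusted p below 0.05 over all genes with an absolute log2 fold change above 1. By this rule 1 of the 10 genes was called in each comparison. In the order P5 Opn4-GFP, adult Opn4-GFP, adult Opn4-Cre/GFP, which is kept wherever the 3 comparisons are given together, the share of all genes called was 5.31%, 4.91% and 4.54%. The share called lower in ipRGCs was 2.9%, 3.27% and 2.99%, and the share called higher was 2.41%, 1.64% and 1.55%. The median log2 fold change over the 10 genes was -0.09, -1.04 and -0.61, beside 0.00, 0.06 and 0.03 over all genes.

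**Figure D2:**
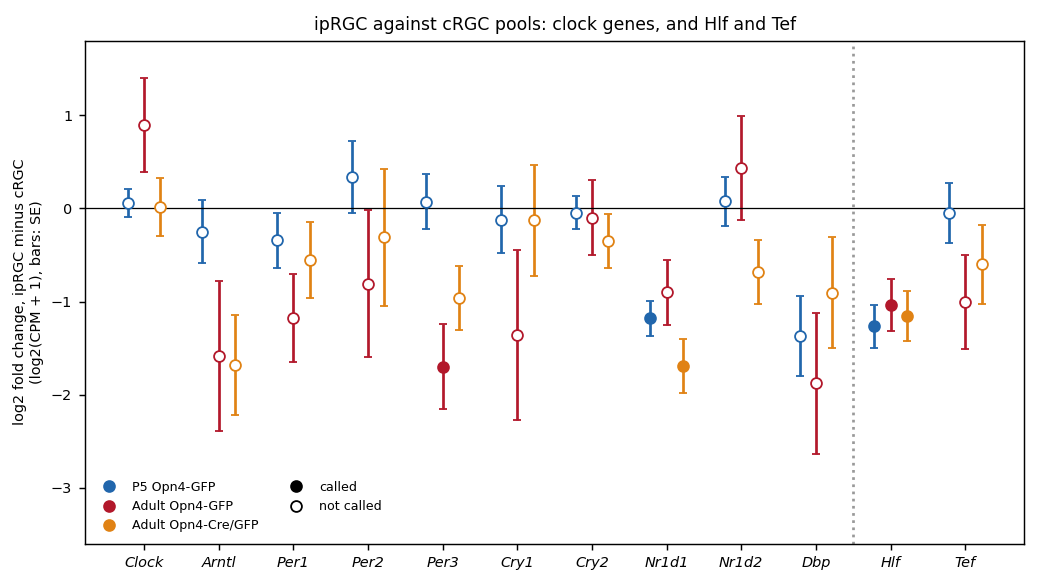
The y axis gives the log2 fold change of ipRGC minus cRGC libraries on the log2(CPM + 1) scale with its standard error, and the x axis gives the 10 clock genes and, right of the dotted line, Hlf and Tef. Blue and red mark P5 and adult Opn4-GFP mice and orange marks adult Opn4-Cre/GFP mice, and filled points were called. Nr1d1 lies at -1.18, -0.90 and -1.69, and Hlf is filled in all 3 colours.

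Nr1d1 (ENSMUSG00000020889; mm9 chr11:98629246-98636647, minus strand) encodes REV-ERB alpha, the repressor of Arntl. At P5 it stood at 42.0, 75.1 and 31.1 CPM in ipRGC libraries 1 to 3 and at 111, 125 and 85.7 CPM in the matching cRGC libraries. All 3 ipRGC libraries lay below all 3 cRGC libraries, which held for Nr1d1 and Dbp among the 10 genes and for 8.47% of all genes. The log2 fold change was -1.18 ± 0.19 (SE, 3 pools), or 2.26-fold lower in ipRGCs, with a limma adjusted p of 0.00149.

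Among the Opn4-Cre/GFP adults, Nr1d1 stood at 357, 255, 211 and 353 CPM in ipRGC libraries 1 to 4 and at 1250, 622, 516 and 1853 CPM in the cRGC libraries. The groups again did not overlap, as was the case for Nr1d1 and Arntl among the 10 genes and for 6.36% of all genes. The difference was -1.69 ± 0.29 (SE, 4 pools), or 3.23-fold lower in ipRGCs (limma adjusted p = 0.0159). The call was lost without pool 1 (adjusted p = 0.0677), without pool 3 (0.106) and narrowly with edgeR (0.0505), with log2 fold changes of -1.65 to -1.83 in these fits.

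Among the Opn4-GFP adults, Nr1d1 was at 391, 347, 319, 1049, 211 and 386 CPM in ipRGC libraries 1 to 6 and at 1599, 1108, 545, 680, 499 and 484 CPM in the cRGC libraries. It was lower in the ipRGC library of 5 of 6 pools, with the reverse order in pool 4. The log2 fold change of -0.90 ± 0.35 (SE, 6 pools) did not pass (limma adjusted p = 0.178), and without pool 4 it was -1.21 with an adjusted p of 0.0366. The ipRGC library of pool 4 also held the group's highest Clock, at 1110 CPM, its lowest Dbp, at 2.23 CPM, and no Arntl reads. In the same library 1893 of 11587 listed genes had no reads, against 18 to 1169 in the other ipRGC libraries of the group. Summed glucocorticoid-target and immediate early gene levels were also highest in that library, at 551 CPM against 74.5 to 225 CPM and at 4742 CPM against 813 to 2621 CPM in the other 5, and their part in the result was not tested.

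Nr1d1 shares 263 of its 3124 exon bases (8.42%) with Thra, a thyroid hormone receptor gene on the opposite strand, and the library kit does not mark strand. Thra did not pass in any of the 3 comparisons, with log2 fold changes of -0.25, 0.21 and -0.12 (limma adjusted p = 0.431, 0.826 and 0.847). Markers of other cells were called lower in ipRGCs in the same comparisons as Nr1d1. At P5 these were 3 of 6 amacrine markers, with sums of 146 to 186 CPM in ipRGC and 229 to 379 CPM in cRGC libraries, and 1 of 3 astrocyte markers, with sums of 1.15 to 7.88 against 12 to 49.8 CPM, while of the 7 Müller glia markers 1 was called lower and 1 higher. In Opn4-Cre/GFP adults they were all 9 Müller glia markers, all 3 vascular markers (6.49 to 21.9 against 662 to 3361 CPM), 1 of 4 rod markers (0.488 to 321 against 209.6 to 953 CPM), 1 of 5 bipolar markers and 1 of 2 astrocyte markers. The part of these cells in the Nr1d1 differences was not tested.

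Nr1d2, the gene of the related receptor REV-ERB beta, did not follow this pattern. It stood at 29.0, 23.1 and 22.2 CPM in P5 ipRGC and 18.6, 22.8 and 29.8 CPM in P5 cRGC libraries, with overlapping groups. The log2 fold changes were 0.07, 0.43 and -0.68, with limma adjusted p values of 0.928, 0.751 and 0.331. In the Opn4-Cre/GFP line it was lower in the ipRGC library of 4 of 4 pools, as 14% of all genes were, at 71.5, 84.7, 136 and 48.0 CPM against 96.3, 148, 189 and 98.8 CPM.

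Among the Period genes, which encode repressors of CLOCK and BMAL1, Per3 (ENSMUSG00000028957; mm9 chr4:150377761-150418774, minus strand) differed most. Opn4-GFP adults had it at 79.7, 43.4, 100.2, 85.5, 84.3 and 76.3 CPM in ipRGC libraries 1 to 6 and at 283, 205, 139, 638, 179 and 256 CPM in the cRGC libraries. No ipRGC library reached the lowest cRGC library, which was true of Per3 alone among the 10 and of 2.46% of all genes. The difference was -1.70 ± 0.46 (SE, 6 pools), or 3.24-fold lower in ipRGCs, with a limma adjusted p of 0.0490. This call lay at the threshold and was lost without any of the 6 pools (adjusted p from 0.0589 to 0.147), with edgeR (0.104), with a pseudocount of 0.5 (0.0518) and without the pools that have 1 sequencing run (0.266), and the log2 fold change without a pool ranged from -1.94 to -1.46.

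Per3 in Opn4-Cre/GFP adults was at 155, 78.8, 106 and 189 CPM in ipRGC and 181, 201, 294 and 331 CPM in cRGC libraries, lower in the ipRGC library of 4 of 4 pools but with overlapping groups. The log2 fold change was -0.96 ± 0.34 (limma adjusted p = 0.165). At P5 the libraries were at 14.8, 9.59 and 24.1 CPM and at 12.2, 11.3 and 21.1 CPM, a difference of 0.07 ± 0.29 (adjusted p = 0.937). A difference of Per3 was not detectable at P5, and the ipRGC library was lower in all 10 adult pools. Of all genes, 6.17% were lower in the ipRGC library of every adult Opn4-GFP pool and 14% in that of every Opn4-Cre/GFP pool. The change of the ipRGC to cRGC difference from P5 to adult was -1.79 ± 0.64 in a fit of within-pool differences and did not pass (limma adjusted p = 0.347). In the Opn4-GFP adults, where Per3 was called, all 9 Müller glia markers, both vascular markers (0.314 to 35.5 CPM in ipRGC against 678 to 1612 CPM in cRGC libraries), 3 of 4 rod markers (0.115 to 23.1 against 141 to 1308 CPM), 1 of 5 bipolar and 1 of 7 amacrine markers were also called lower in ipRGCs. Their part in the Per3 difference was not tested.

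Per1 and Per2 did not pass in any of the 3 comparisons of ipRGCs with cRGCs. Per1 in adult Opn4-GFP mice had a low of 85.9, a median of 126 and a high of 181 CPM in ipRGC libraries and 86.6, 237 and 1014 CPM in cRGC libraries. Its log2 fold change there was -1.17 ± 0.47 (limma adjusted p = 0.194), with the ipRGC library lower in 5 of 6 pools. Per2 in the same groups had a low of 1.07, a median of 56.7 and a high of 128 CPM against 29.2, 51.3 and 209 CPM, and it was lower in the ipRGC library of 3 of 6 pools. The lowest of these, ipRGC library 2, held 17 Per2 reads. Per2 was the most variable of the 10 in that group relative to genes of like level, with an SD of 2.20 on the log2 scale, above 94.4% of them.

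Of the activators, Arntl (ENSMUSG00000055116; mm9 chr7:120350979-120457636, plus strand) was lower in the ipRGC library of all 10 adult pools, while Clock was not. Arntl passed in neither adult comparison with limma. Of all genes, 6.17% were lower in the ipRGC library of every adult Opn4-GFP pool and 14% in that of every Opn4-Cre/GFP pool. The share over both lines together was not counted. In the Opn4-Cre/GFP line Arntl was at 11.4, 12, 15.2 and 11.7 CPM in ipRGC libraries 1 to 4 and at 36.1, 35.0, 37.5 and 66.1 CPM in cRGC libraries. The groups did not overlap, and the ipRGC libraries were close together, with an SD of 0.18 on the log2 scale that was smaller than in all but 1.32% of genes of like level. The log2 fold change of -1.68 ± 0.54 did not pass with limma (adjusted p = 0.130). On recovered reads it was -1.75 with edgeR (adjusted p = 0.236) and -1.77 with DESeq2 (adjusted p = 0.00705), so only DESeq2 called it.

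Arntl in Opn4-GFP adults was at 14.6, 26.8, 3.34, 0, 8.99 and 28.8 CPM in ipRGC and at 22.9, 163, 32.5, 4.35, 14.7 and 35.3 CPM in cRGC libraries. The value of 0 in ipRGC library 4 allows up to 0.172 CPM (3 reads, counting error only). In that library 1893 of 11587 listed genes were at 0. The groups overlapped, and the log2 fold change was -1.58 ± 0.81 (limma adjusted p = 0.330). At P5 the values of 16.8, 11.5 and 29.1 CPM in ipRGC and 14.9, 31.2 and 20.9 CPM in cRGC libraries also overlapped, at -0.25 ± 0.34 (adjusted p = 0.784).

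Clock, the partner of BMAL1, was nearly flat at P5, at 118, 107 and 107 CPM in ipRGC and 112, 102 and 105 CPM in cRGC libraries. Its lowest, median and highest values were 179, 289 and 1110 CPM in ipRGC and 75.7, 207 and 613 CPM in cRGC libraries of Opn4-GFP adults, a log2 fold change of 0.90 ± 0.50 (limma adjusted p = 0.385). In the Opn4-Cre/GFP line it was at 304, 292, 385 and 172 CPM against 272, 375, 515 and 107 CPM, a difference of 0.01 ± 0.31 (adjusted p = 0.987). Both libraries of pool 3 were highest and both of pool 4, which had 1 sequencing run and the lowest depth, were lowest in that line.

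The Cryptochrome genes, which encode the partners of the Period proteins in repression, did not pass in any of the 3 comparisons. Cry2 was at 95.3, 100.2 and 72.2 CPM in P5 ipRGC and 74.9, 115 and 88.7 CPM in P5 cRGC libraries, and its log2 fold changes were -0.05, -0.10 and -0.35 (limma adjusted p = 0.930, 0.930 and 0.555). Cry1 was lower in level, at 11.2, 7.31 and 6.60 CPM against 9.04, 7.55 and 10.6 CPM at P5. Among Opn4-GFP adults, Cry1 had no reads in ipRGC library 2, which allows up to 0.188 CPM by counting error only. In that library 1169 of 11587 listed genes were at 0. Otherwise Cry1 reached 30.6 CPM in ipRGC libraries, against 5.44 to 32.9 CPM in cRGC libraries. Its log2 fold changes were -0.12, -1.36 and -0.13 (adjusted p = 0.910, 0.485 and 0.932).

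Dbp (ENSMUSG00000059824; mm9 chr7:52960458-52965525, plus strand), the output factor, was low and lower in P5 ipRGCs but did not pass. At P5 it was at 0.656, 0.760 and 0.733 CPM in ipRGC libraries, or 9, 8 and 7 reads, and at 2.30, 5.83 and 2.88 CPM in cRGC libraries, or 13, 51 and 27 reads. The groups did not overlap, and the log2 fold change was -1.37 ± 0.43 (limma adjusted p = 0.0832). On the log2(CPM + 1) scale this understates the change of a gene at this level, and edgeR on recovered reads gave -2.23 with an adjusted p of 0.169.

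Dbp in Opn4-GFP adults was at 21.8, 34.3, 15.5, 2.23, 15.8 and 9.98 CPM in ipRGC and 165, 88.8, 41.1, 64.6, 28.7 and 15.0 CPM in cRGC libraries, lower in the ipRGC library of 6 of 6 pools, as 6.17% of all genes were. The log2 fold change was -1.88 ± 0.75 with a limma adjusted p of 0.193. edgeR gave -1.89 with an adjusted p of 0.458, and DESeq2 gave -1.92 with 0.0405. Opn4-Cre/GFP adults had it at 20.4, 12.5, 10.5 and 36.6 CPM against 41.0, 39.2, 36.6 and 23.0 CPM, with pool 4 in the opposite order (log2 fold change -0.90 ± 0.60, adjusted p = 0.457). Dbp shares 491 of its 2945 exon bases (16.7%) with Sphk2 on the opposite strand, whose own differences were 0.23, -2.05 and -0.23 (adjusted p = 0.809, 0.324 and 0.912).

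Counted over all 13 pools, Nr1d1 and Dbp were lower in the ipRGC library of 12 pools each, Per3 and Arntl of 11, Per1 and Cry2 of 10, Cry1 of 9, Nr1d2 of 8, Per2 of 6 and Clock of 4. These counts use CPM scaled separately for each set. After joint scaling, 3.51% of all genes were lower in the ipRGC library of at least 12 of 13 pools. On that scale Nr1d1 and Dbp again had 12 pools, Nr1d2 had 7 and Clock 5, and the other counts were unchanged. The share of all genes at 9 to 11 pools was not counted. A fit of the within-pool differences over all pools, averaged over the 3 combinations of age and line and added after the data had been seen, called Nr1d1 at -1.28 ± 0.22 (limma adjusted p = 0.00095), or 2.43-fold lower in ipRGCs, with 6.84% of all genes called, 3.78% called lower and 3.06% called higher. Nr1d1 kept this call without each pool in turn. Per3, at -0.88 ± 0.26, had an adjusted p of 0.0461 but a log2 fold change short of 1. Dbp, at -1.40 ± 0.43, had an adjusted p of 0.0567 and passed without adult Opn4-GFP pool 2 (0.0457), 4 (0.0470) or 6 (0.0486) or Opn4-Cre/GFP pool 4 (0.0411), and Arntl, at -1.19 ± 0.39, had an adjusted p of 0.0784.

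**Figure D3:**
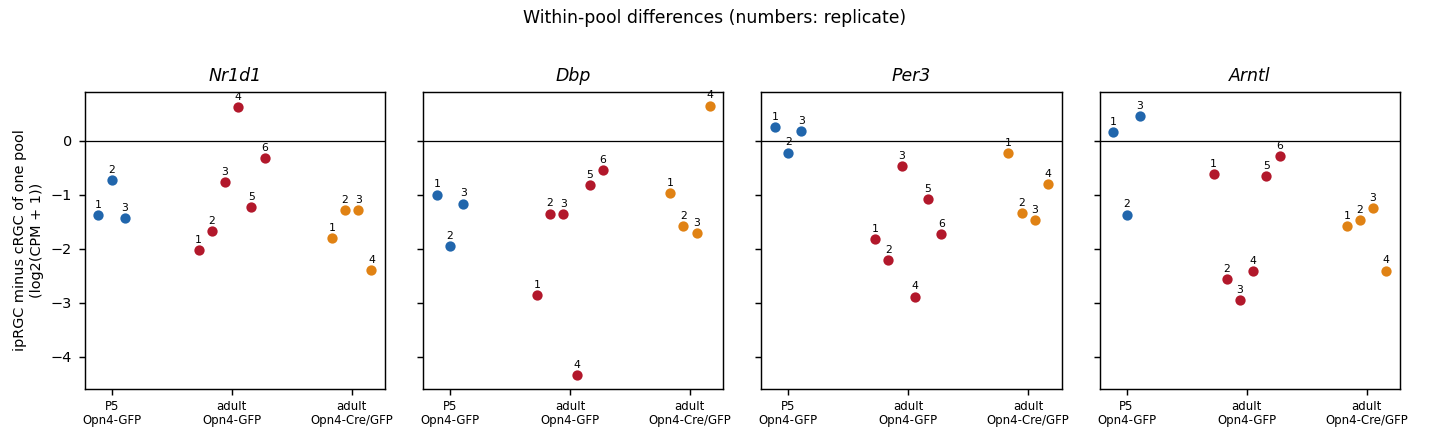
Each panel shows 1 gene, with the ipRGC value minus the cRGC value of the same pool on the log2(CPM + 1) scale on the y axis and age and line on the x axis, and numbers name the replicate. Points below 0 are pools in which the ipRGC library was lower, which holds for 12 of 13 pools for Nr1d1 and Dbp and 11 of 13 for Per3 and Arntl.

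Whether the difference between ipRGCs and cRGCs itself changed with age or line was tested on the same within-pool differences. No clock gene passed for age (0.969% of all genes did), where Nr1d1 had a change of 0.26 ± 0.53 (limma adjusted p = 0.986). None passed for line, and neither did any other gene, with 540 genes at an unadjusted p below 0.05. Between the adult lines directly, no clock gene was called in ipRGCs (2 genes, 0.0179%, with 430 at an unadjusted p below 0.05) or in cRGCs (3 genes, 0.0269%, with 848). The log2 differences of Opn4-Cre/GFP minus Opn4-GFP ranged over the 10 genes from -0.64 for Nr1d2 to 0.86 for Cry1 in ipRGCs, and from -0.98 for Per1 to 0.58 for Arntl in cRGCs.

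The second comparison set adult against P5 libraries of the Opn4-GFP line, on reads scaled jointly over all libraries. Every clock gene called with age was higher in adults. In ipRGCs, Nr1d1, Dbp, Per3, Nr1d2 and Per1 were called higher and none lower, or 5 of 10 genes where 1.41% of all genes were called, 0.96% higher and 0.448% lower. In cRGCs, Per3, Dbp, Per2, Per1, Nr1d1, Nr1d2 and Cry2 were called higher and none lower, or 7 of 10 where 7.7% of all genes were called, 3.87% higher and 3.83% lower. The median log2 fold change of the 10 genes was 2.13 in ipRGCs and 2.42 in cRGCs, beside -0.29 and -0.34 over all genes. The ages were separate collections, so age and the hour or batch of collection cannot be told apart.

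**Figure D4:**
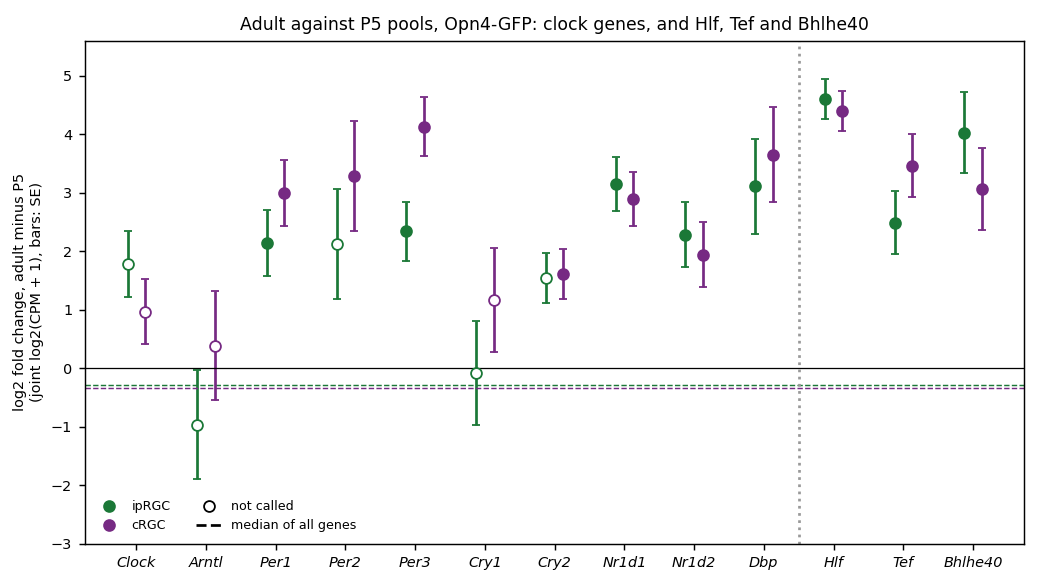
The y axis gives the log2 fold change of adult minus P5 Opn4-GFP libraries on the joint log2(CPM + 1) scale with its standard error, green for ipRGC and purple for cRGC, for the 10 clock genes and for Hlf, Tef and Bhlhe40 right of the dotted line. Filled points were called, and dashed lines mark the median of all genes at -0.29 and -0.34. Clock, Arntl and Cry1 are open in both cell types.

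Nr1d1 was higher in adults by 3.15 ± 0.46 on the log2 scale in ipRGCs (8.90-fold; limma adjusted p = 6.64e-05) and by 2.90 ± 0.46 in cRGCs (7.45-fold; adjusted p = 4.41e-05). Both calls were kept without each pool in turn. Every adult library lay above every P5 library in both cell types. Among the 10 genes this was also so for Per1, Per3 and Dbp in both cell types, for Cry2, Clock and Nr1d2 in ipRGCs, and for Per2 in cRGCs, which makes 7 genes in ipRGCs and 5 in cRGCs, beside 4.55% and 6.13% of all genes.

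Dbp was higher in adult ipRGCs by 3.11 ± 0.81 (limma adjusted p = 0.0442) and in adult cRGCs by 3.65 ± 0.81 (adjusted p = 0.00286). The log2(CPM + 1) scale understates these changes, most in ipRGCs, since Dbp was so low at P5. Its jointly scaled means were 0.700 CPM at P5 and 17.4 CPM in adults in ipRGCs, and 3.59 and 70.8 CPM in cRGCs. Per3 was higher by 2.34 ± 0.50 in ipRGCs (5.07-fold; adjusted p = 0.00799) and by 4.13 ± 0.50 in cRGCs (17.6-fold; adjusted p = 5.84e-07). Per1 was higher by 2.15 ± 0.56 in ipRGCs (adjusted p = 0.0447) and 3.0 ± 0.56 in cRGCs (adjusted p = 0.000427), and Nr1d2 by 2.28 ± 0.56 (adjusted p = 0.0260) and 1.95 ± 0.56 (adjusted p = 0.0247). In cRGCs the calls of Per1, Per3 and Dbp were kept without each pool.

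The other ipRGC calls were less secure. With a P5 pool left out, 2 pools remain at that age, and the call was then lost for Dbp (adjusted p from 0.239 to 0.262), Per1 (0.109 to 0.348) and Nr1d2 (0.124 to 0.189) without any of the 3, and for Per3 without pool 1 (0.0763) or pool 2 (0.143). Dbp was also lost without adult Opn4-GFP pool 1, 2, 3 or 5 or Opn4-Cre/GFP pool 1, 2 or 3 (0.0591 to 0.0794), and Per1 without adult Opn4-GFP pool 1, 2, 3 or 6 or Opn4-Cre/GFP pool 2 or 3 (0.0580 to 0.0890). Opn4-Cre/GFP pools enter here through the shared estimate of the spread. The log2 fold changes in all these fits stayed between 2.02 and 3.15.

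Per2 and Cry2 were called higher in adult cRGCs, by 3.29 ± 0.94 (limma adjusted p = 0.0238) and 1.61 ± 0.43 (adjusted p = 0.0143). In ipRGCs their differences were 2.12 ± 0.94 (adjusted p = 0.412) and 1.54 ± 0.43 (adjusted p = 0.0630). Without adult pool 2, whose ipRGC library held 17 Per2 reads, the ipRGC difference of Per2 was 3.01 with an adjusted p of 0.0225, and Cry2 passed in ipRGCs without adult pool 4 (0.0360) or 5 (0.0496). In cRGCs, Per2 was lost without any P5 pool (0.0763 to 0.156) or without adult pool 1 (0.0577) or 3 (0.0593), Cry2 without P5 pool 1 (0.132) or 3 (0.0866), and Nr1d2 without any P5 pool (0.0693 to 0.170) or without adult pool 5 (0.0524) or 6 (0.0536).

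The activators and Cry1 did not pass in either cell type. Clock differed by 1.79 ± 0.56 in ipRGCs (limma adjusted p = 0.125) and 0.97 ± 0.56 in cRGCs (adjusted p = 0.340). Arntl differed by -0.96 ± 0.93 in ipRGCs (adjusted p = 0.820) and 0.38 ± 0.93 in cRGCs (adjusted p = 0.872), and Cry1 by -0.08 ± 0.89 and 1.17 ± 0.89 (adjusted p = 0.989 and 0.493). The wide standard errors of Arntl and Cry1 leave changes of either sign within range. Of the markers of other cells, all 7 Müller glia genes tested were called higher in adult cRGCs, and 1 was called higher and 1 lower in adult ipRGCs. All 6 amacrine markers tested were called higher in adults in both cell types, as were the 1 rod and the 1 vascular marker tested in cRGCs. Of the 10 general RGC markers, 8 were called lower in adult cRGCs, with sums of 5949 to 7488 CPM at P5 and 389 to 2328 CPM in adults, scaled separately for each age, and a median log2 fold change of -3.6, and none was called in ipRGCs. Their part in the clock gene differences was not tested.

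The last question was whether both libraries of a pool were high or low together. No clock gene passed the limma F test of the pool term (1.71% of all genes passed at P5 and 0 in both adult sets, where 1103 and 1356 genes had an unadjusted p below 0.05). Those nearest to passing by unadjusted p were Nr1d1 at P5 (limma adjusted p = 0.117), Clock in Opn4-Cre/GFP adults (0.480), Per3 at P5 (0.224) and Nr1d1 in Opn4-Cre/GFP adults (0.480). Nr1d1 at P5 was highest in pool 2 and lowest in pool 3 in both cell types, and Per3 at P5 was highest in pool 3 and lowest in pool 2 in both.

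Relations between members over the 13 pools, with pool means centred within age and line, were computed for 5 pairs, and none passed (100000 permutations within age and line, two-sided, Benjamini-Hochberg over 5). The largest was between Arntl and Dbp (Pearson r = 0.51, permutation p = 0.274, adjusted p = 0.593; Spearman rho = 0.38, p = 0.301, adjusted p = 0.672), and r was -0.21 without the 2 pools farthest from the median. Dbp with Nr1d1 had r = 0.40 (permutation p = 0.216, adjusted p = 0.593) and rho = 0.52 (p = 0.0957, adjusted p = 0.478), with r = 0.22 over the 11 remaining pools. Within the 6 adult Opn4-GFP pools these r values were 0.53 and 0.32.

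Other clock-related genes were taken from a list of 29 regulators and related output factors, of which 27, 25 and 27 were tested in the 3 comparisons. Hlf, which encodes a D-box factor of the same family as DBP, was called lower in ipRGCs in all 3 comparisons. At P5 its lowest, median and highest values were 14.7, 19.0 and 19.3 CPM in ipRGC and 37.2, 41.7 and 53.5 CPM in cRGC libraries. In adults they were 260, 415 and 737 against 669, 875 and 1180 CPM in Opn4-GFP mice, and 308, 432 and 605 against 864, 970 and 1028 CPM in Opn4-Cre/GFP mice. Hlf was lower in the ipRGC library of 13 of 13 pools, although the adult Opn4-GFP groups overlapped. After joint scaling, 3.51% of all genes were lower in at least 12 of 13 pools.

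The Hlf differences were -1.27 ± 0.23 at P5 (limma adjusted p = 0.00413), -1.04 ± 0.28 in Opn4-GFP adults (0.0467) and -1.16 ± 0.27 in Opn4-Cre/GFP adults (0.0475). Both adult calls lay near the threshold: they were lost without the block (adjusted p = 0.0683 and 0.0540), with edgeR (0.112 and 0.113), without single-run pools (0.380 and 0.0719), with DESeq2 in the former (0.0800), without any pool other than 2 in the former (0.0649 to 0.175) and without any pool in the latter (0.0676 to 0.231). In the fit over all pools Hlf was at -1.18 ± 0.18 (adjusted p = 0.000366). Tef, another gene of the family, did not pass in any of the 3.

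The other genes of the list that were called in these comparisons were Rora at P5, Rorb in adult Opn4-GFP mice and Adcy1 in adult Opn4-Cre/GFP mice. With Hlf, 2 of 27, 2 of 25 and 2 of 27 tested genes were called, beside 5.31%, 4.91% and 4.54% of all genes. Rora, which encodes a nuclear receptor that activates Arntl, was at 99.7 to 130 CPM in P5 ipRGC and 469 to 542 CPM in P5 cRGC libraries, a difference of -2.20 ± 0.14 (limma adjusted p = 7.13e-07). Among Opn4-GFP adults the ranges of 153 to 726 and 119 to 494 CPM overlapped, and the change of the difference with age was 2.61 ± 0.54 (adjusted p = 0.0263). That call was lost without any P5 pool (0.136 to 0.183) or without adult Opn4-GFP pool 1 (0.0527). Rorb, a relative of Rora, was lower in adult Opn4-GFP ipRGCs by -1.07 ± 0.26 (0.0266), and Adcy1, which encodes a calcium-stimulated adenylyl cyclase, was higher in Opn4-Cre/GFP ipRGCs by 1.88 ± 0.43 (0.0467). The Rorb call was lost with edgeR (0.0702), with DESeq2 (0.0504), without single-run pools (0.247) and without pool 1, 3, 5 or 6 (0.0830 to 0.114). Adcy1 was lost without the block (0.129), with edgeR (0.118), with a pseudocount of 0.5 (0.0521) and without pool 1, 2 or 3 (0.0623 to 0.198). With age, 24 of the list were tested and 3 were called higher and none lower in ipRGCs, namely Hlf (4.60), Bhlhe40 (4.03) and Tef (2.49). In cRGCs 5 were called higher and 1 lower, namely Hlf (4.40), Usp2 (3.62), Tef (3.46), Bhlhe40 (3.07) and Bhlhe41 (2.78), and Adcy1 (-3.87), all as log2 fold changes. Of all genes, 0.96% were called higher and 0.448% lower in ipRGCs, and 3.87% higher and 3.83% lower in cRGCs. Dbp, Hlf and Tef, D-box factors of the same family, were all called higher in adults in both cell types. Nfil3, a further clock-related gene that was measured, was not called with age in either. Its median in Opn4-GFP ipRGCs was 9.32 CPM at P5 and 6.53 CPM in adults (range 0 to 35.6). In cRGCs it was 15.2 and 1.21 CPM (adult range 0 to 11.1), scaled separately for each age. The Tef call in ipRGCs was lost without any P5 pool (0.0571 to 0.101). Those of Bhlhe40 and Usp2 in cRGCs were lost without P5 pool 1 (0.0748) and P5 pool 2 (0.0751), respectively.

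Immediate early genes, which rise with neuronal activity and with tissue handling, moved in some of the same comparisons. Their summed level over listed genes was 238 to 648 CPM in P5 libraries and 810 to 6513 CPM in adult libraries, scaled separately for each set. Jun and Dusp1 were called lower in P5 ipRGCs (-1.70 and -1.11) and Jun and Fos in adult Opn4-GFP ipRGCs (-4.45 and -1.59). These were 2 of 12 and 2 of 13 genes tested, and 0 of 13 were called in adult Opn4-Cre/GFP mice. The share of all genes called lower in ipRGCs was 2.9%, 3.27% and 2.99%. Of the calls in this list, Dusp1 was lost without the block (limma adjusted p = 0.0804) and Jun in adults without single-run pools (0.0576). Fos was lost without the block (0.0753), with edgeR (0.0901), without single-run pools (0.174) and without any pool other than 4 (0.0747 to 0.163). With age, Egr1 and Dusp1 were called higher in ipRGCs (2.79 and 2.76) and cRGCs (3.64 and 2.59), and Fos in cRGCs (2.41). Of 12 tested, these were 2 in ipRGCs and 3 in cRGCs, beside 0.96% and 3.87% of all genes called higher. The Dusp1 call was lost without any P5 pool in ipRGCs (0.0661 to 0.195) and without P5 pool 1 (0.0993) or 3 (0.0697) in cRGCs, and the Fos call without P5 pool 1 (0.155). Of the 5 glucocorticoid targets tested, only Klf9 was called with age, higher in adults in both cell types (2.73 and 2.23). The Klf9 call was lost without P5 pool 1 or 2 in ipRGCs (0.143 to 0.189). In cRGCs it was lost without any P5 pool or adult pool 1 (0.0573 to 0.113). The part of these genes in the clock gene differences was not tested.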

How the data were processed

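RNA from sorted cells was amplified with the Nugen Ovation system, which does not mark strand, and sequenced as short single-end reads. Per the labels and the methods of the study, the authors aligned reads to mm9 with TopHat2, counted them per gene with HTSeq, handled alignments with SAMtools and scaled counts with edgeR. Tool versions: not given in the sources used here. Deposited values are a signal per gene: CPM scaled by trimmed mean of M values (TMM) separately for the P5 Opn4-GFP, the adult Opn4-GFP and the Opn4-Cre/GFP libraries. The authors removed genes under 1 CPM in most samples of a comparison, so single values under 1 CPM remain. Dividing by the value of 1 read gave whole reads (within 0.01 of a read, or in proportion for high counts) for 100% of 327962 values. The columns of the authors' own comparisons hold fold changes and p-values and were not used, and 2 entries of the read totals match no library here and were not used. Of 1911 blank gene names, 1885 were filled from GENCODE vM1 by gene ID.

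Within each set, limma 3.58.1 (R 4.3.3, trend) was fitted to log2(CPM + 1) of all listed genes (13677, 11587 and 13357) with the replicate number as a block, following the study's paired test. For comparisons between sets, reads of the 11150 genes listed in all 3 were scaled jointly by TMM. The call rule was an adjusted p below 0.05 with an absolute log2 fold change above 1, and an adjusted p below 0.05 alone for pool terms and for changes of a difference. edgeR 4.0.16 (quasi-likelihood) and DESeq2 1.42.0 on recovered reads, pseudocounts of 0.5 and 2, a filter on mean CPM of 5, fits without the block, other size factors, left-out pools and pools with 1 sequencing run left out were alternatives. The design had assumed CPM values, and recovered reads serve the alternatives and the joint scaling. Scripts were tested on simulated data. Figures and counts used Python 3.11.15.

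That same-numbered libraries come from the same pool rests on the methods of the study. As a check, deviations from group means correlated within pairs at 0.135 to 0.324 (mean 0.212) at P5, 0.0162 to 0.125 (mean 0.0582) in Opn4-GFP adults and 0.0520 to 0.268 (mean 0.123) in Opn4-Cre/GFP adults. The best match in the other cell type had the same number for 6 of 6 libraries at P5 and 8 of 8 in Opn4-Cre/GFP adults. In Opn4-GFP adults this held for only 7 of 12, so the pairing is least clear there. Replicates are pools of mice, whose overlap in animals or litters is not stated in the labels, so p-values measure the spread between these libraries. The members and lists were chosen with earlier results of these data known. Named genes were all 10 members, every called gene of the wider clock, immediate early and glucocorticoid lists with at most 4 that were not called, and the gene most like each member (that of Per2 is not reported here). Lists of markers of rods, cones, bipolar cells, astrocytes, vessels and microglia were also measured, and marker lists are given by counts and sums. The precision of a value follows from reads per library, and intervals and floors cover counting error only.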

Additional observations from a re-analysis of the deposited data

Results flagged for a closer look

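In 6 of 40 groups of 4 or 6 libraries, 1 library lay far from the others by Dixon's ratio, where chance marks about 1 group in 20 for independent normal values. The ratio was taken on CPM without a log, the groups share libraries, and every flagged library was the highest of its group. The count therefore cannot be set against that share. Among Opn4-GFP adults these were Per3 in cRGC library 4 (638 CPM, with the next at 283), Nr1d1 in ipRGC library 4 (1049 CPM, next 391), Cry2 in ipRGC library 2 (390 CPM, next 258) and Arntl in cRGC library 2 (163 CPM, next 35.3). Among Opn4-Cre/GFP adults they were Arntl in ipRGC library 3 (15.2 CPM, next 12) and in cRGC library 4 (66.1 CPM, next 37.5). Both libraries of adult Opn4-GFP pool 4 are among them, each for a different gene.

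The difference between ipRGCs and cRGCs changed with age for Rora, by 2.61 on the log2 scale (limma adjusted p = 0.0263), a call that was lost without any P5 pool (0.136 to 0.183) or without adult Opn4-GFP pool 1 (0.0527). Rora was lower in the ipRGC library of 3 of 3 P5 pools, and higher in 4 of 6 adult Opn4-GFP pools and 4 of 4 adult Opn4-Cre/GFP pools.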

How the results depend on the processing

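Without the replicate block, the counts of genes called were 574, 597 and 727 for P5, for Opn4-GFP adults and for Opn4-Cre/GFP adults (726, 569 and 607 with it), and the call of no clock gene changed. For Opn4-GFP adults edgeR called 321 genes, DESeq2 1657, and the fit without pools that have 1 sequencing run 121. The 1 clock gene called there became 0 with a pseudocount of 0.5, with edgeR and without those pools, and 2 with DESeq2. For Opn4-Cre/GFP adults edgeR called 222 genes and 0 clock genes, and DESeq2 1816 and 2. The P5 pool term passed for 726 genes with a mean of at least 5 CPM against 234, and the direct ipRGC comparison of lines called 0 genes with a pseudocount of 0.5 against 2. Differences near 0 turned in sign in adult Opn4-Cre/GFP mice: Clock was -0.0076 with DESeq2 and -0.21 without single-run pools, and Per2 was 0.31 there. Relations turned in sign for Arntl with Nr1d1 in cRGC libraries (0.30), Dbp with Nr1d1 in ipRGC libraries (-0.42), Dbp with Per3 (0.062 in ipRGC, 0.047 in cRGC) and Per1 with Per2 (0.12 and 0.012). With 1 pool left out, the ranges were as follows. At P5 the pool term passed for 39 to 526 genes, and log2 fold changes ranged from -0.60 to 0.31 for Arntl, -0.32 to 0.12 for Cry1, -0.24 to 0.075 for Cry2, -0.19 to 0.32 for Nr1d2, -0.027 to 0.69 for Per2 and -0.019 to 0.22 for Per3. In adult Opn4-GFP mice 335 to 632 genes and 0 to 1 clock genes were called, the pool term passed for 0 to 1, and Cry2 ranged from -0.40 to 0.13 and Nr1d2 from -0.072 to 0.68. In adult Opn4-Cre/GFP mice 8 to 805 genes and 0 to 1 clock genes were called, and Clock ranged from -0.21 to 0.16, Cry1 from -0.31 to 0.089 and Per2 from -1.01 to 0.31. With age, 49 to 242 genes and 1 to 6 clock genes were called in ipRGCs, where Cry1 ranged from -0.46 to 0.54, and 402 to 1061 and 4 to 7 in cRGCs, where Arntl ranged from -0.12 to 0.87. Between lines 0 to 2 genes were called in ipRGCs and 3 to 6 in cRGCs. The change of the difference with age passed for 34 to 142 genes, and Nr1d1 ranged from -0.043 to 0.48. Over all pools 458 to 933 genes and 1 to 2 clock genes were called, and Nr1d2 ranged from -0.25 to 0.049. The cause of these changes was not tested. At P5, Dbp rests on 7 to 51 reads a library.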

Other observations

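Over the 26 libraries, the gene outside the 10 whose joint log2(CPM + 1) followed each member other than Per2 most closely was Egr1 for Per1 (Pearson r = 0.89), Nfix for Per3 (0.91), Pgrmc2 for Cry1 (0.79), Gad2 for Cry2 (0.84), Braf for Clock (0.82), Tmem176b for Arntl (0.82), Slc2a1 for Nr1d1 (0.90), Cd164 for Nr1d2 (0.87) and Sept4 for Dbp (0.89). These values are descriptions: the libraries fall into P5 and adult clusters and share pools and depth. Per3 was the member most like 5 of the others, with r of 0.84 for Nr1d1, 0.83 for Dbp, 0.79 for Per1, 0.69 for Nr1d2 and 0.68 for Per2. Arntl was the member least like the rest, and its closest was Dbp at 0.33.

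Pool 4 of the adult Opn4-Cre/GFP line held the highest cRGC values of Nr1d1 (1853 CPM), Per3 (331 CPM), Cry2 (272 CPM) and Arntl (66.1 CPM) and the lowest of Clock (107 CPM), Cry1 (5.78 CPM), Dbp (23.0 CPM) and Per1 (104 CPM). Its ipRGC library held the group's highest Per3 (189 CPM), Cry2 (207 CPM) and Dbp (36.6 CPM) and the lowest Clock (172 CPM), Cry1 (8.08 CPM), Per1 (44.9 CPM), Per2 (19.5 CPM) and Nr1d2 (48.0 CPM). Clock, Cry1 and Per1 were thus lowest and Per3 and Cry2 highest in both libraries of that pool. The pool had 1 sequencing run and the lowest depth of the line. Listed genes had 9482809 reads in its ipRGC and 6899510 in its cRGC library, against 27386472 to 44871619 in the other libraries. Of 13357 listed genes, 1595 and 1381 had no reads in these libraries, against 22 to 432 in the others. The ipRGC library also held 321 CPM of rod markers, against 0.488 to 7.17 CPM in the other 3 ipRGC libraries, and 214 CPM of cone markers against 1.0 to 10.03 CPM. The part of depth and of these markers in the levels of that pool was not tested.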
